A study of Arabidopsis thaliana with 6 samples.

Results

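The RSZ, RS2Z, SC35 and SCL genes of Arabidopsis thaliana encode 10 of the plant's SR proteins: RSZ21 (AT1G23860), RSZ22 (AT4G31580) and RSZ22a (AT2G24590), RS2Z32 (AT3G53500) and RS2Z33 (AT2G37340), SC35 (AT5G64200), and SCL28 (AT5G18810), SCL30 (AT3G55460), SCL30a (AT3G13570) and SCL33 (AT1G55310). The 10 genes were taken by name and locus. Poly(A) sites counted for a gene when they lay on its strand, within its span or no more than 200 nt past its end. They held 130 of the 164115 assigned poly(A) site clusters, in 10 of 18220 genes with a cluster.

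SR proteins carry an RNA recognition motif and a region rich in arginine and serine. They bind exons and help the splicing machinery to recognise splice sites, and kinases that phosphorylate the arginine and serine region control where they go and what they contact. Arabidopsis holds more SR genes than mammals do. The RSZ proteins have a zinc knuckle and the plant-specific RS2Z proteins a pair of them, SC35 is the relative of the mammalian protein of that name, and the plant-specific SCL proteins resemble SC35 but begin with an extra charged stretch. Light is known to change the splicing of SR genes in plants.

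The libraries were made by 3'READS+, a method in which each read marks the poly(A) end of an RNA, from whole wild-type Col-0 seedlings. All plants grew for 1 to 2 weeks at 22 °C in constant white light on agar plates and then spent 48 h in darkness. Light seedlings (3 libraries) were returned to light for the last 6 h, and Dark seedlings (3 libraries) stayed in darkness for those 6 h. Both groups were the same wild type and shared the dark period. The labels leave unsaid whether the replicates are separate plantings, so p-values cover the spread among these libraries alone, and that spread may be technical.

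The deposited clusters held 13.20 to 13.51 M reads in Light libraries and 13.36 to 14.53 M reads in Dark libraries. Leaf markers were abundant. The summed level of RBCS1A, CAB1, LHCB2.1 and GLDP1 was between 11146 and 12419 CPM (counts per M reads after TMM scaling, edgeR's correction for library composition) in Light and between 4178 and 5500.1 CPM in Dark, and all 4 of 4 were called higher in Light. Of 3 root markers tested, 2 were called higher and 0 lower, with PYK10 at 7154 ± 584 CPM in Light and 1623 ± 473 CPM in Dark (SD, n = 3 each). Over all genes tested, 37.4% were called higher and 35.6% lower. SHR had 12.9 ± 0.75 CPM in Light and 7.51 ± 2.2 CPM in Dark, SCR, which did not pass, 9.63 ± 1.0 CPM in Light and 11.3 ± 1.1 CPM in Dark, and WOX5, which was not tested, at most 0.449 CPM. Of 3 epidermis and guard cell markers, ATML1 was lower (log2 change -0.55, edgeR adjusted p = 3.69e-04), PDF1 higher (0.74, adjusted p = 0.0216) and FMA not called (0.22, adjusted p = 0.36), and their summed level was 82.0 to 92.0 CPM in Light and 68.9 to 93.7 CPM in Dark. PDF1 lost its call without Light replicate 1 (adjusted p = 0.0807) or 2 (0.0503) and ATML1 with library totals (0.432), where FMA was higher (0.0125). The seed marker OLEO1, an oil body protein, reached 13.2 CPM in Light replicate 1 and at most 0.0821 CPM in each other library, and CRA1 and CRU3, seed storage proteins, reached 6.78 and 3.46 CPM there and at most 0.202 CPM elsewhere. The dividing cell marker CYCB1;1 was between 0.135 and 1.04 CPM in Light and between 0 and 0.263 CPM in Dark, and no cluster was assigned to the flower marker AG. The part of these tissue markers in the results below was not tested, except that all 9 calls on members' levels were also made without Light replicate 1. In whole seedlings, fewer cells of a type and less RNA per cell cannot be told apart.

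After renewed light, most of these genes had less RNA than in darkness and 3 had more. RSZ21, RS2Z32, RS2Z33, SC35, SCL30 and SCL33 fell, by 1.66-fold for SC35 to 4.08-fold for RS2Z33, while RSZ22, RSZ22a and SCL30a rose, by 1.57-fold to 4.51-fold. All 9 members that could be tested passed edgeR's quasi-likelihood test, in a table where 72.9% of the 16773 genes tested were called. Members called lower numbered 6 of 9, against 35.6% of all genes, and members called higher 3 of 9, against 37.4%. A change of at least 2-fold was called in 6 of 9, against 45.4% of all genes. The median log2 change of the 9 was -1.04, beside 0.04 over all genes tested, and their median size was 1.42 beside 0.90. The plot of reads per gene in each library shows that the Light and Dark libraries did not overlap for any of these 9 genes. The share of all genes without such overlap was not computed, so this does not set the members apart.

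**Figure D1:**
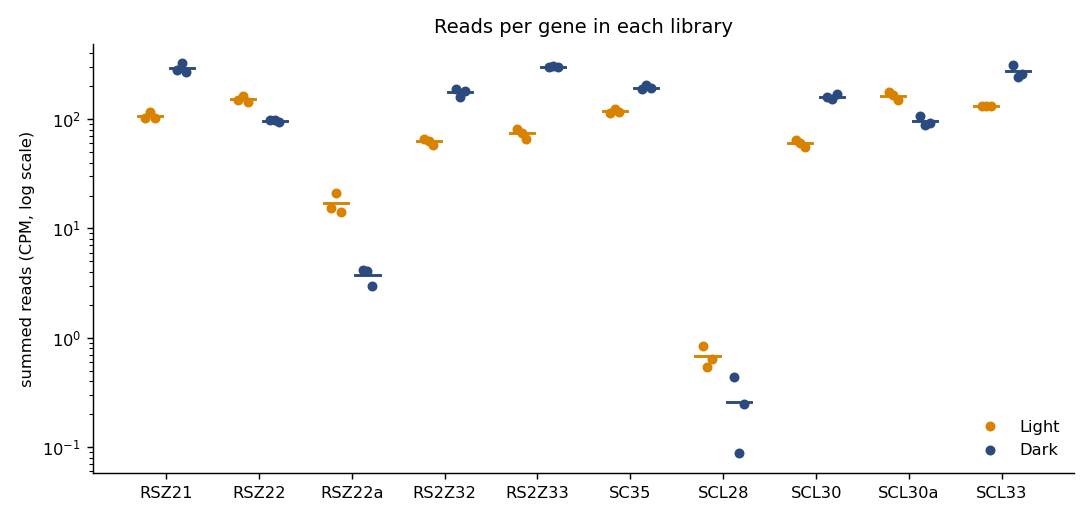
Summed reads of each gene in CPM (log axis) for the 3 Light libraries (orange, left) and the 3 Dark libraries (blue, right); bars are group means. RSZ22, RSZ22a and SCL30a lie higher in Light, 6 genes lie lower, and SCL28 lies below 1 CPM in every library.

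The direction of these changes did not depend on the scaling. With library totals alone in place of TMM factors, the median log2 change of all genes moved to 0.50 and the split of all calls to 8625 higher and 4012 lower, from 6267 higher and 5965 lower. The same 3 members were then higher and the same 6 lower; SC35 came closest to no change, with a log2 change of -0.27 (edgeR adjusted p = 0.0164).

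Within the RSZ subfamily the 3 genes went different ways. RSZ21, whose protein binds the U1 snRNP protein U1-70K, had 103, 117 and 102 CPM in the Light libraries, against 284, 323 and 271 CPM in the Dark libraries. Each Light library was thus well under each Dark library, and the log2 change was -1.45 ± 0.11 (SE, n = 3 each, edgeR adjusted p = 3.81e-08). RSZ22, a protein that shuttles between nucleus and cytoplasm, had 149, 164 and 144 CPM in Light, against 98.8, 97.4 and 94.8 CPM in Dark.
The Dark libraries lay close together and all Light libraries above them, and the log2 change was 0.65 ± 0.10 (edgeR adjusted p = 5.11e-05). RSZ22a, the close relative of RSZ22, had 15.4, 21.2 and 14.2 CPM in Light, against 4.21, 4.11 and 2.96 CPM in Dark. Its groups did not overlap either, and its log2 change was 2.17 ± 0.21 (edgeR adjusted p = 3.68e-07).

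Both RS2Z genes fell. RS2Z33, known to regulate the splicing of its own RNA, had 81.2, 75.4 and 65.3 CPM in Light, against 298, 307 and 302 CPM in Dark. The change of -2.03 ± 0.11 on the log2 scale (edgeR adjusted p = 1.44e-09) was the largest fall among the 9. RS2Z32 had 66.0, 63.7 and 58.2 CPM in Light, against 187, 160 and 182 CPM in Dark, also without overlap, and its log2 change was -1.49 ± 0.11 (edgeR adjusted p = 2.38e-08).

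SC35 and 2 of the 3 tested SCL genes fell. SC35 had 114, 123 and 115 CPM in Light, against 187, 204 and 192 CPM in Dark, a log2 change of -0.73 ± 0.10 (edgeR adjusted p = 1.49e-05). SCL30 had 64.0, 61.0 and 55.1 CPM in Light, against 158, 154 and 170 CPM in Dark, a log2 change of -1.42 ± 0.11 (edgeR adjusted p = 3.16e-08). SCL33, another partner of U1-70K, had 132, 132 and 133 CPM in Light, against 313, 244 and 261 CPM in Dark, a log2 change of -1.04 ± 0.11 (edgeR adjusted p = 1.39e-06).
In each of the 3 genes the lowest Dark library stood clear of the highest Light library. SCL30a, known for its part in seed germination and abscisic acid responses, went the other way, with 176, 167 and 148 CPM in Light, against 106, 88.5 and 91.8 CPM in Dark. Its log2 change was 0.78 ± 0.11 (edgeR adjusted p = 2.52e-05).

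SCL28, known for a role in the cell cycle, was nearly absent. It had 13, 8 and 10 reads in the Light libraries, against 5, 1 and 3 reads in the Dark libraries, 40 reads in all, and did not pass the filter on low counts. Without that filter its log2 change was 1.36, with an edgeR adjusted p of 0.062. All Light libraries were above all Dark libraries, but a difference was not shown at this depth.

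Since each read marks an RNA end, levels of different genes can be set side by side without a length correction. In Light the order from high to low was SCL30a, RSZ22, SCL33, SC35, RSZ21, RS2Z33, RS2Z32, SCL30, RSZ22a and SCL28. Library ranges overlapped between SCL30a and RSZ22, between SC35 and RSZ21, between RS2Z33 and RS2Z32, and between RS2Z32 and SCL30, although in each of these 4 pairs the first gene was above the second within each of the 3 Light libraries. In Dark the order was RS2Z33, RSZ21, SCL33, SC35, RS2Z32, SCL30, RSZ22, SCL30a, RSZ22a and SCL28. There RS2Z33 overlapped with RSZ21, RSZ21 with SCL33, SC35 with RS2Z32, RS2Z32 with SCL30, and RSZ22 with SCL30a. Within the Dark libraries RS2Z32 was above SCL30 each time, and the order of the other overlapping neighbours differed between libraries.

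The family total and its make-up both differed. The summed level of the 10 genes was 901, 925 and 836 CPM in Light, against 1637, 1582 and 1568 CPM in Dark (exact permutation test, two-sided, p = 0.1, the smallest that 3 libraries against 3 can give). Without TMM factors the totals were 1012 ± 41.4 reads per M library reads in Light and 1319 ± 75.9 in Dark (SD over 3 libraries), again without overlap. The 3 genes that rose made up 37.5% ± 0.74 of the family's reads in Light and 12.3% ± 0.42 in Dark. They were picked by their rise in these same libraries, so the direction of this difference was fixed in advance.
SCL30a alone held 18.5% ± 0.95 in Light and 5.98% ± 0.45 in Dark, and the RS2Z subfamily 15.4% ± 0.84 in Light and 30.0% ± 0.73 in Dark. SC35 and SCL33 kept overlapping shares: SC35 held 13.2% ± 0.58 in Light and 12.2% ± 0.74 in Dark, and SCL33 14.9% ± 0.84 in Light and 17.1% ± 1.9 in Dark.

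Close relatives did not keep their proportions. Of the reads of SCL30a and SCL33, SCL30a held 57.1%, 55.9% and 52.7% in Light, against 25.3%, 26.6% and 26.0% in Dark. Of the reads of RSZ22 and RSZ21, RSZ22 held 59.0%, 58.4% and 58.5% in Light, against 25.8%, 23.2% and 25.9% in Dark. In both pairs the more abundant gene was thus a different one in each group.
Of the reads of RSZ22a and RSZ22, RSZ22a held 9.94% ± 1.3 in Light and 3.72% ± 0.60 in Dark, and of the RS2Z reads RS2Z33 held 54.1% ± 1.1 in Light and 63.2% ± 2.3 in Dark, as SD of 3 libraries a group. These 4 pairs were the ones compared, no groups overlapped, and each gave the smallest exact permutation p of 0.1, also after Benjamini-Hochberg adjustment. The shares restate the gene counts tested above and are no separate support. SCL30a with SCL33, and RSZ22 with RSZ21, set a gene called higher against one called lower, so the direction there was fixed in advance. The share of other gene pairs without overlap was not computed.

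**Figure D2:**
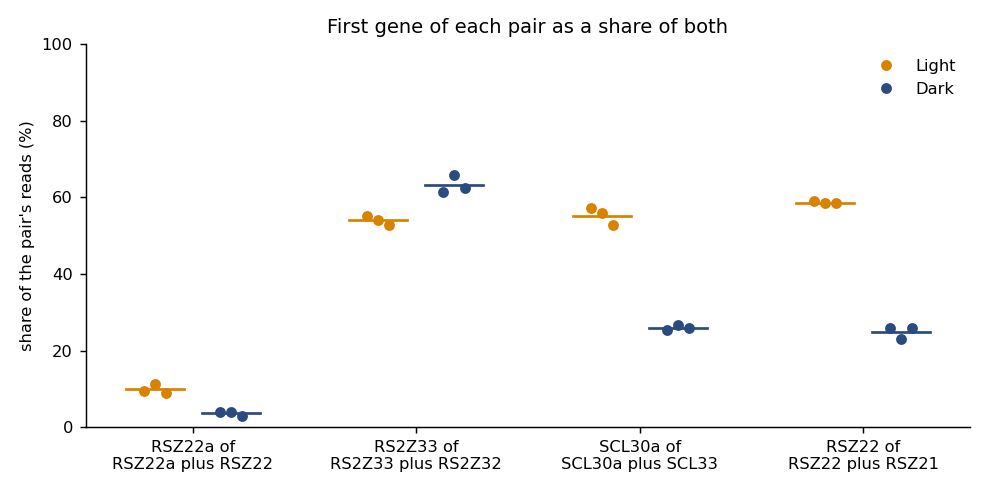
Share of a pair's reads (percent) that fell on the first gene of the pair, in the 3 Light libraries (orange, left) and the 3 Dark libraries (blue, right); bars are group means. SCL30a and RSZ22 held at least 52.7% of their pairs in every Light library and at most 26.6% in every Dark library.

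The other genes of the splicing pathway show how these changes sit among their neighbours. Of the 8 other SR genes, 7 were called lower and 1 higher, with a median log2 change of -0.94. Over all genes tested, 35.6% were called lower and 37.4% higher, with a median of 0.04. RS40 fell most, with 32.0 ± 1.9 CPM in Light and 182 ± 8.1 CPM in Dark (log2 change -2.51, edgeR adjusted p = 1.49e-10), and SR34a was the gene that rose, with 364 ± 36 CPM in Light and 272 ± 38 CPM in Dark (log2 change 0.42, edgeR adjusted p = 0.00657). With library totals alone 5 of the 8 were lower and 1 higher, beside 4012 lower and 8625 higher of all 16773 genes.
Of the SR-like proteins, SR45 had a log2 change of 0.26 (edgeR adjusted p = 0.0447), a call lost without Light replicate 2 (adjusted p = 0.0721), Light replicate 3 (0.139), Dark replicate 1 (0.174) or Dark replicate 3 (0.153), and SR45a one of 0.22 (edgeR adjusted p = 0.112).

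**Figure D3:**
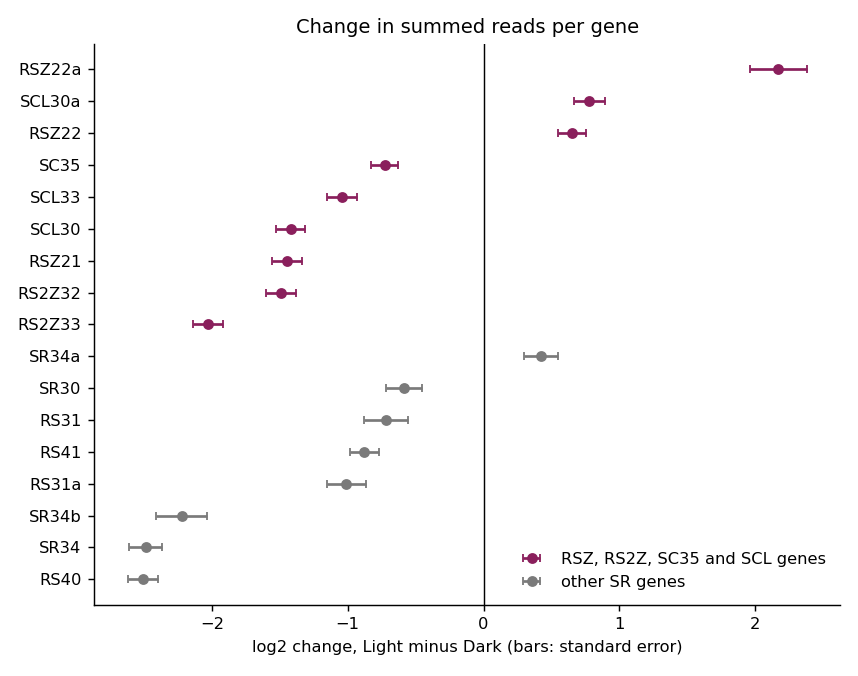
Log2 change of summed reads, Light minus Dark, with its standard error, for the 9 tested members (purple) and the 8 other SR genes (grey), sorted within each set. RSZ22a, SCL30a, RSZ22 and SR34a lie right of 0, and RS2Z33, SR34 and RS40 are among the lowest.

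Genes that act on SR proteins, or with them, moved in both directions. Of 10 genes listed for the phosphorylation and nuclear import of SR proteins, 7 were lower and 2 higher, and the 2 became 1 without Light replicate 2 or 3 or Dark replicate 1 or 3. Beside this and the next list stand 35.6% of all genes called lower and 37.4% called higher. SRPK4, an SR protein kinase, had 8.49 ± 1.7 CPM in Light and 55.3 ± 1.7 CPM in Dark, the largest fall of that list (log2 change -2.70, edgeR adjusted p = 9.87e-10), and the locus AT3G44850 had the largest rise (log2 change 1.64, edgeR adjusted p = 5.83e-08). With library totals alone that list had 4 lower and 2 higher.
Of 6 tested genes for splice site recognition, 4 were lower and 1 higher, and U2AF35B, to which no cluster was assigned, was not tested. ATU2AF35A, a subunit of the factor that binds the 3' splice site, had a log2 change of -1.47 (edgeR adjusted p = 1.33e-07), and U1A, a U1 snRNP protein, one of 0.98 (edgeR adjusted p = 1.89e-06). In a list built around CYP59, a cyclophilin that binds SR proteins, CYP59 had a log2 change of -0.04 (edgeR adjusted p = 0.836), AT3G63400 one of -0.32 (0.0146) and AT4G32420 one of 0.32 (0.0307). Without Light replicate 2 or Dark replicate 3 AT3G63400 gave 0.0849 or 0.0514, and AT4G32420 0.123 or 0.138, with 0.0603 without Dark replicate 1. Of 3 genes listed for nonsense-mediated decay, which removes many SR transcripts with early stop codons, UPF3 fell (log2 change -1.07, edgeR adjusted p = 3.42e-07), and LBA1 and AT2G39260 had log2 changes of -0.20 and -0.17 that did not pass.

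Site choice within the genes changed in fewer members. With sites of at least 5% of a gene's reads, edgeR's diffSpliceDGE test with Simes' method called 4 of the 9 members tested, RSZ22, RSZ21, RSZ22a and SCL30, beside 25.8% of the 11008 genes tested. RS2Z32 (adjusted p = 0.264), RS2Z33 (adjusted p = 0.14), SC35 (adjusted p = 0.146), SCL30a (adjusted p = 0.992) and SCL33 (adjusted p = 0.9999) did not pass. The largest change of any site's share was 25.3 percentage points in RSZ22a (11.7 at the same site with ends up to 500 nt past the gene counted), 12.7 in RSZ22, 7.14 in RSZ21 and 5.80 in SCL30, beside a median of 7.69 over all genes tested. In RSZ22 and SCL30 that site was the main site, which was not itself called. In SCL33 the largest change was 1.14 points, and 2.87% of genes had a smaller one. Of the 26 sites tested in members 7 were called, beside 14.4% of all sites tested.

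RSZ22 had a smaller share of distal ends in Light. Its main site, at position 15308342 on the + strand of chromosome 4 (TAIR10, as deposited), held 76.6%, 75.0% and 74.5% of the gene's reads in Light, against 62.9%, 61.2% and 63.7% in Dark. That site was not called (log2 usage change 0.13, diffSpliceDGE adjusted p = 0.518). The site at 15308943, 601 nt downstream, held 4.47%, 3.66% and 4.18% in Light, against 12.3%, 9.61% and 11.7% in Dark. Every Light library was below every Dark library there, and usage relative to the rest of the gene fell by 1.07 on the log2 scale (diffSpliceDGE adjusted p = 1.6e-08).
The site 68 nt upstream of the main one, 15308274, also passed at a log2 usage change of -0.42 (diffSpliceDGE adjusted p = 0.0344), but with adjusted p between 0.0694 and 0.163 when any library other than Dark replicate 1 was left out. The site at 15308308 held 10.4% ± 0.68 in Light and 8.66% ± 1.0 in Dark and was not called (adjusted p = 0.66).

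RSZ21, on the - strand of chromosome 1, moved the same way. Its main site, at 8427914, held 37.8% ± 1.8 of reads in Light and 34.4% ± 1.5 in Dark and was not called (diffSpliceDGE adjusted p = 0.589). The site 94 nt downstream, 8427820, held 15.0%, 15.3% and 19.3% in Light, against 10.5%, 9.98% and 7.75% in Dark (log2 usage change 0.58, diffSpliceDGE adjusted p = 3.67e-04). The site 569 nt downstream, 8427345, held 8.15%, 4.28% and 6.59% in Light, against 11.2%, 10.3% and 13.2% in Dark (log2 usage change -0.58, diffSpliceDGE adjusted p = 7.07e-04).
Neither site had overlapping groups: the nearer one gained and the farther one lost. A last site at 8427317 held 3.69% ± 1.0 in Light and 6.02% ± 0.13 in Dark (diffSpliceDGE adjusted p = 0.0186), a call lost without Light replicate 2 (adjusted p = 0.12), Light replicate 3 (0.121), Dark replicate 1 (0.0508) or Dark replicate 3 (0.0608). The site at 8427779, 135 nt downstream, held 24.9% ± 2.2 in Light and 29.8% ± 1.1 in Dark (adjusted p = 0.421).

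**Figure D4:**
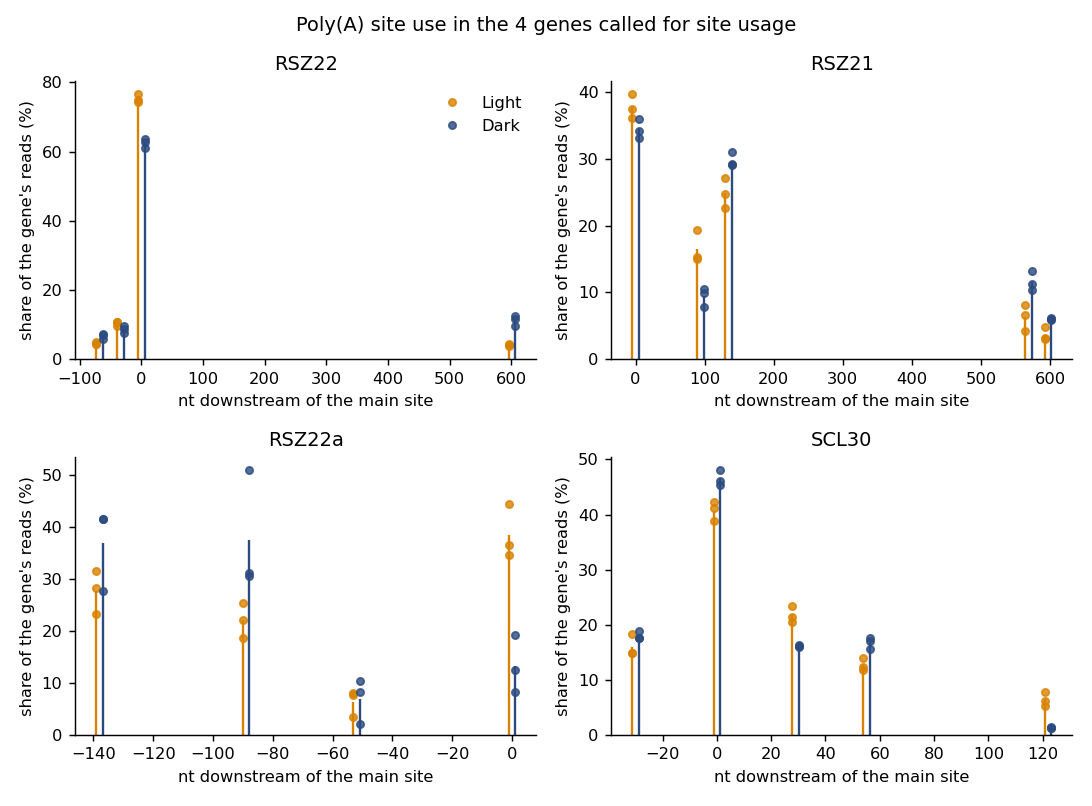
Share of each gene's reads (percent) at its named sites, by distance in nt from the gene's main site (downstream to the right), for the 3 Light libraries (orange) and the 3 Dark libraries (blue); vertical lines reach the group means. RSZ22 and RSZ21 have a distant site or pair of sites, 569 to 601 nt downstream, that is lower in Light.

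When sites within 100 nt of each other were merged, a setting chosen after seeing the data, RSZ22 and RSZ21 each had a proximal and a distal group, and both were called (diffSpliceDGE adjusted p = 1.68e-10 for RSZ22 and 1.76e-04 for RSZ21), beside 45.6% of the 528 genes with more than 1 group. The distal group held 5.87% ± 0.27 of RSZ22 reads in Light and 18.3% ± 1.0 in Dark, as SD of 3 libraries a group. For RSZ21 it held 11.3% ± 3.3 in Light and 19.2% ± 1.5 in Dark. In both genes the RefSeq table on the TAIR10.1 assembly places the distal group near the annotated gene end and the proximal group well inside the gene.
The levels of the groups show where the RSZ22 rise lay. Its proximal ends were at 142 ± 9.8 CPM in Light and 77.6 ± 0.54 CPM in Dark, and its distal ends at 8.92 ± 0.39 CPM in Light and 17.8 ± 1.4 CPM in Dark. The proximal ends were thus higher and the distal ends lower in Light, each without overlap of libraries, and the same held per M library reads without TMM factors, where the Light to Dark ratios were 2.52 and 0.692. In RSZ21 both were lower in Light: proximal ends were at 95.3 ± 10 CPM in Light and 236 ± 26 CPM in Dark, and distal ends at 12.0 ± 2.9 CPM in Light and 56.1 ± 2.4 CPM in Dark.

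**Figure D5:**
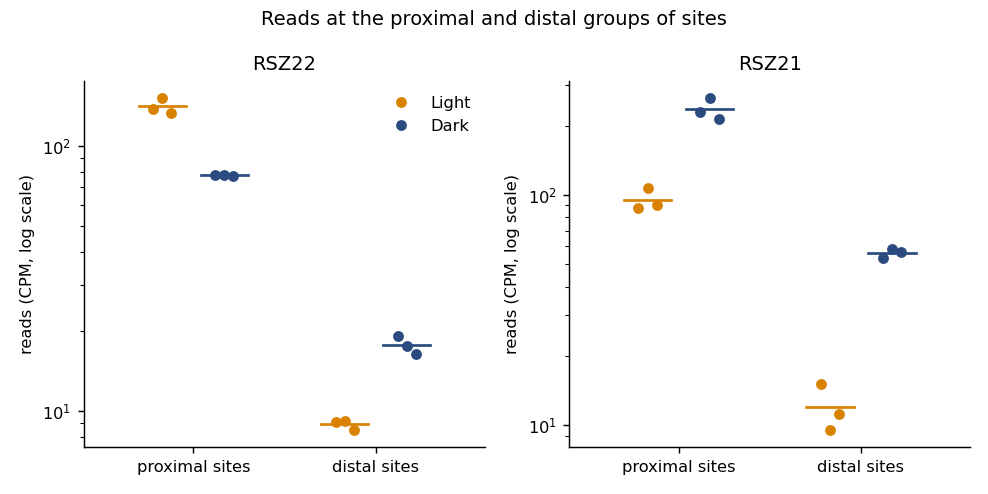
Reads at the proximal and distal groups of sites of RSZ22 and RSZ21 in CPM (log axes), in the 3 Light libraries (orange, left) and the 3 Dark libraries (blue, right); bars are group means. In RSZ22 the proximal ends are higher and the distal ends lower in Light, and in RSZ21 both are lower.

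RSZ22a and SCL30 each had a called site with a larger share in Light. In RSZ22a it was the most downstream of 4 named sites, and in SCL30 it lay downstream of the main site. Over all libraries RSZ22a's most used site was 10451177 on the + strand of chromosome 2, though in Dark 10451088 and 10451039 had larger mean shares. The site at 10451177 held 44.5%, 36.6% and 34.7% of reads in Light, against 12.5%, 19.1% and 8.33% in Dark. The lowest Light library was well above the highest Dark library, and the log2 usage change was 1.02 (diffSpliceDGE adjusted p = 0.00599). The gene's test gave an adjusted p of 0.00837, which was 0.0518 without Light replicate 1, 0.0846 without Dark replicate 1 and 0.0951 without Dark replicate 3, and the site's was 0.056 without Dark replicate 3.
The Dark shares rest on few reads, with 48, 47 and 36 reads for the whole gene in the 3 Dark libraries. The upstream sites at 10451088 and 10451039 held 22.1% ± 3.4 and 27.7% ± 4.2 in Light, beside 37.6% ± 12 and 37.0% ± 8.1 in Dark, and did not pass; 10451125 held 6.34% ± 2.6 in Light and 6.96% ± 4.3 in Dark and was not tested. A further set of ends lay beyond the window, up to 500 nt past the annotated end, where the RefSeq table lists the non-coding RNA AT2G24592. Counted with the gene, these ends made up 50.5% ± 4.4 of the reads in Light and 47.3% ± 11 in Dark. One of them, 10451434, then had the largest mean share of any site in both groups. It held 36.0% ± 4.0 in Light and 34.9% ± 11 in Dark, with overlapping groups. The site at 10451177 then held 19.1% ± 3.2 in Light and 7.43% ± 4.6 in Dark, a difference of 11.7 percentage points, and the log2 change of RSZ22a was 2.24 with them included (edgeR adjusted p = 1.84e-08).

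SCL30, on the + strand of chromosome 3, had 5 named sites within 152 nt. The site at 20563705, 29 nt downstream of the main site at 20563676, held 21.4%, 20.4% and 23.4% in Light, against 16.3%, 16.0% and 16.1% in Dark (log2 usage change 0.36, diffSpliceDGE adjusted p = 0.0192). The Light libraries were all above the Dark ones, but that site lost its call without Light replicate 3 (adjusted p = 0.0997) or Dark replicate 3 (0.0988). The gene's adjusted p of 0.0348 rose to 0.0785, 0.0761 and 0.18 without Light replicates 1, 2 and 3, to 0.07 and 0.17 without Dark replicates 1 and 3, and to 0.0521 with no filter on low counts.
The next site downstream went the other way without a call: 20563731, 55 nt downstream of the main site, held 12.7% ± 1.1 in Light and 16.7% ± 1.1 in Dark, without overlap of libraries (diffSpliceDGE adjusted p = 0.3). The main site held 40.7% ± 1.8 in Light and 46.5% ± 1.4 in Dark, and 20563646, 30 nt upstream, 15.9% ± 2.0 in Light and 18.0% ± 0.74 in Dark; neither passed. The last site, at 20563798, 122 nt downstream, held 5.30%, 6.19% and 7.80% in Light, against 1.39%, 1.25% and 1.16% in Dark. It held 2.94% of all SCL30 reads, under the 5% minimum, and was named because every Light library was above 5%. Naming on that ground fixed the direction of its difference in advance. With the minimum at 1%, the log2 usage change of 20563798 was 1.62 (diffSpliceDGE adjusted p = 8.16e-11), while 20563705 gave an adjusted p of 0.0615, and RS2Z32 (gene adjusted p = 0.00273) and SC35 (0.0412) passed as well.

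In the other 5 tested genes no site was called at the 5% minimum. SCL33 used 20632892 on the + strand of chromosome 1 for 81.8% ± 2.0 of reads in Light and 81.0% ± 1.5 in Dark. SCL30a used 4429399 on the - strand of chromosome 3 for 63.1% ± 1.5 in Light and 66.2% ± 1.2 in Dark, RS2Z32 used 19834346 on the same strand for 84.0% ± 1.8 in Light and 85.7% ± 0.13 in Dark, and RS2Z33 used 15670180 on the - strand of chromosome 2 for 79.0% ± 1.1 in Light and 76.2% ± 1.6 in Dark. SC35 used 25681594 on the - strand of chromosome 5 for 81.7% ± 1.4 in Light and 78.0% ± 1.8 in Dark.
Each of these genes had a second named site. In SCL33, 20632838 held 16.9% ± 2.1 in Light and 18.0% ± 1.2 in Dark, and in SCL30a, 4429372 held 28.3% ± 1.4 in Light and 28.0% ± 1.2 in Dark. The groups overlapped at both. In RS2Z32, 19834403 held 5.52% ± 0.91 in Light and 7.66% ± 0.46 in Dark (diffSpliceDGE adjusted p = 0.22). In RS2Z33, 15670210 held 11.1% ± 1.3 in Light and 14.4% ± 0.91 in Dark (adjusted p = 0.123). In SC35, 25681637 held 10.1% ± 0.90 in Light and 13.1% ± 0.85 in Dark (adjusted p = 0.127). These last 3 sites lay upstream of the main site, and every Light library was below every Dark library there. The main sites of RS2Z33, SC35 and SCL30a had no overlap either. The share of all sites without overlap was not computed. The largest share change was 2.15 percentage points in RS2Z32, 3.35 in RS2Z33, 3.65 in SC35 and 3.12 in SCL30a. The median over all genes tested was 7.69. The test misses many changes of site use, and the missed threshold does not show that site use was alike. SCL28 had most of its few reads, 92.5%, at 6268708 on the - strand of chromosome 5 and the rest at 6268748.

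The mean position of read ends summarises the 9 genes. It lay 24.7 ± 2.8 nt downstream of the main site in Light and 99.7 ± 6.6 nt in Dark for RSZ22, and 124 ± 18 nt in Light and 170 ± 4.5 nt in Dark for RSZ21, so both ended earlier in Light.
For SCL30 it lay at 15.0 ± 2.8 nt in Light and 9.25 ± 0.65 nt in Dark, so it ended later in Light. For RSZ22a it lay at -53.7 ± 6.4 nt in Light and -78.8 ± 8.9 nt in Dark. RSZ22a thus ended later in Light among ends up to 200 nt past the gene. The exact permutation p was 0.1, the smallest possible, for each of these 4 genes, and the groups overlapped in the other 5. The RSZ22a mean leaves out the ends farther downstream. Counted with the gene, those ends held 50.5% ± 4.4 of reads in Light and 47.3% ± 11 in Dark, with overlapping groups. Whether RSZ22a ended later in Light with them included was not tested. The share of all genes without overlap in mean position was not computed.

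A narrower test gave fewer calls. The terminal region began 400 nt upstream of the most distal site with at least 10% of reads and held every site downstream of that point. Between its 2 most used sites, 0 of 9 members passed diffSpliceDGE, beside 15.4% of the 10878 genes tested. At an unadjusted p under 0.05 there were 3, RSZ22a, SCL30 and RS2Z33. The share of all genes under that unadjusted threshold was not computed, so these 3 cannot be set against it. Without Dark replicate 2 RSZ22a passed (adjusted p = 0.0302). No member had 5% of its reads upstream of the terminal region, so none was tested for a shift to upstream sites; of the 482 genes that were, 42.7% were called, which says nothing of the members. RSZ21's site at 8427345 held 9.82% of its reads, just under the 10% that defines the region, and RSZ22's at 15308943 held 6.43%. With the minimum at 5%, a setting chosen after seeing the data, both genes were tested and called (adjusted p = 1.05e-04 for RSZ21 and 1.79e-11 for RSZ22), beside 42.4% of the 523 genes then tested.

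The genes whose levels over the 6 libraries were most like the family total were AT5G45660, CYCP2;1 and CYN, with Pearson correlations of log2 CPM between 0.9995 and 0.9998 among 9395 genes. The 6 points form 2 groups, so these correlations describe the Light to Dark difference.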

How the data were processed

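The authors deposited raw counts of reads per poly(A) site cluster in every library. Bowtie2 and TAIR10 are named in the submitters' processing notes, and how clusters were formed is not stated in the labels. Every count was a whole number, and replicates differed by more than sampling noise (chi-square per degree of freedom 6.24 to 26.9). Gene spans came from a RefSeq gene table on TAIR10.1, which holds no strand. Strand was inferred from reads around the gene ends (at least 20 reads, 90% on the same strand), and clusters shared by genes or within 50 nt of a small RNA gene were left out; 97.1% of reads were assigned. No genome sequence was used. The deposited counts were summed per gene and tested in R 4.3.3 with edgeR 4.0.16 (TMM, filterByExpr with minimum count 10 and total 15, quasi-likelihood F-test, diffSpliceDGE with Simes' method), with Benjamini-Hochberg adjustment over all genes or clusters tested and a threshold of 0.05. The statistical steps were tested on simulated data. There, more changes in site use were missed than recovered at the adjusted threshold, so a member that did not pass may have changed, and the bound first set for recovery in that step was replaced by checks of direction and calibration after this was seen. Alternatives were DESeq2 1.42.0, library totals, no filter, other windows, other site minimums, merging, a replicate block and each library left out. All 10 members, all named sites (at least 5% of reads over all libraries, or in every library of a group), the top rise and fall of each other list and short lists in full were named. A listed gene is not reported here. Members and lists were chosen with earlier results of these data known. Errors are SDs over 3 libraries unless called SE, and counting error is only part of them.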

Additional observations from a re-analysis of the deposited data

Results flagged for a closer look

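RSZ22a had reads outside the window used for its level. On its strand, from beyond the 200 nt window to 600 nt past the annotated end and in no other protein-coding gene, there were 273, 324 and 308 reads in the Light libraries, against 63, 44 and 57 reads in the Dark libraries. This is a mean of 19.8 ± 2.0 CPM in Light and 4.68 ± 0.84 CPM in Dark (SD, n = 3 each), with the lowest Light library above the highest Dark library. The RefSeq table lists the non-coding RNA AT2G24592 there without a strand, so reads of a longer RSZ22a RNA and reads of that RNA cannot be told apart.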

How the results depend on the processing

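All 108 alternative values of the 9 members' log2 changes kept their direction and stayed past the threshold, with adjusted p up to 0.0164, and the counts of 3 higher and 6 lower held throughout. The count of 4 members called for site usage was 2 to 4 with a library left out, 6 with sites from 1% of reads and 2 with sites merged within 100 nt, where fewer genes have more than 1 group; with the replicate block it was 4. The upstream count of 0 became 2 with the 5% minimum for the reference site, and the terminal pair count of 0 was 0 to 1 with a library left out. RSZ21 and RSZ22 kept their site usage calls under every alternative in which they could be tested, and with sites from 10% of reads RSZ22 could not be. Under library totals alone the lists had 2 SR-like, 2 splice site recognition, 2 cyclophilin and 2 decay genes higher, and 4 kinase and 0 cyclophilin genes lower. The SR-like count of 1 higher was 0 with the replicate block, with no filter and with DESeq2, and 0 to 1 with a library left out. Under DESeq2 1 kinase gene and 0 cyclophilin genes were higher; with a library left out these were 1 to 2 and 0 to 1, and cyclophilins lower 0 to 1. The labels do not say whether replicate numbers pair the libraries. Same-numbered deviations correlated weakly, at 0.0548, 0.00046 and 0.0727. Light replicates 1 and 3 correlated best with their own number, and Light replicate 2 did not. These values cannot settle whether the libraries are paired. The block left the 9 level calls in place. RSZ22a and SCL28 are limited by depth. Over all genes, the 1673 terminal pair calls became 1069 without Light replicate 2 and 945 without Dark replicate 3. The cause of the other moves was not tested.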

Other observations

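Reads on the opposite strand inside RS2Z33 averaged 7.24 ± 0.93 CPM in Light and 50.4 ± 9.3 CPM in Dark, and those inside SC35 0.811 ± 0.18 CPM in Light and 8.05 ± 1.2 CPM in Dark (SD, n = 3 each). Both genes have a neighbour whose span reaches into theirs, ALS3 for RS2Z33 and AT5G64190 for SC35, and most of these reads were assigned to that neighbour. The counts keep strands apart, so these reads did not enter the members' levels.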
